A study of Mus musculus with 6 samples.

Results

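Matrix metalloproteinases (MMPs) are zinc-dependent enzymes that cut collagens and other proteins of the extracellular matrix, and the tissue inhibitors of metalloproteinases (TIMPs) bind and block their active sites. In fibroblasts, Mmp14 sits on the cell surface and, with Timp2 as an adaptor, activates the secreted proform of Mmp2. The stromelysins and collagenases Mmp3, Mmp10 and Mmp13 are known as genes that AP-1 transcription factors switch on. Adamts1 belongs to the related ADAMTS family, which cuts versican and other proteoglycans, and Timp3 stands out among the inhibitors by binding to the matrix and by inhibiting ADAM and ADAMTS enzymes as well.

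The 10 genes described here are Mmp2, Mmp3, Mmp10, Mmp11, Mmp13, Mmp14, Timp1, Timp2, Timp3 and Adamts1, taken by symbol from a table of 55401 genes. Messenger RNA had been sequenced from NIH-3T3, an established line of mouse embryonic fibroblasts grown in medium with serum, and from a mutated derivative of it. There were 3 libraries of the line with genotype WT (WT) and 3 of the derivative with genotype Mutation (MU), and no treatment beyond culture. Neither the mutated gene nor its allele is named in the labels, nor whether the MU line is 1 clone. The mutation and other differences between these 2 lines cannot be told apart. Replicates are not said to be separate cultures, and p-values thus cover the spread between libraries, which may be technical. The title of the study concerns mitochondrial translation infidelity, and the comparison here asks how this protease and inhibitor set differed in the mutated cells.

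Levels are in TPM (the usual length-corrected transcript unit), which divide reads by transcript length, so levels of different genes can be set side by side. Sequencing depth is unknown, because TPM values do not keep it, and no counting interval was computed. Each library had 13944 to 14146 genes at 1 TPM or more. Fibroblast genes were abundant, with Vim, an intermediate filament gene, at 3981 ± 628 TPM in WT and at 4133 ± 59.5 TPM in MU (mean ± SD, n = 3), while Fap, another fibroblast marker, averaged 0.225 TPM in WT and was listed at 0 in MU. Of the macrophage and leukocyte markers, Adgre1 and Tyrobp were listed at 0 in all 6 libraries. The 9 markers of that list summed to 4.78 to 5.501 TPM in WT and 10.2 to 12.6 TPM in MU, and of them Csf1r, a growth factor receptor, rose from 1.87 ± 0.109 to 5.34 ± 0.848 TPM. In such bulk samples, fewer cells of a type and less RNA per cell cannot be told apart.

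In the mutated cells Adamts1 and Timp3 rose, Timp1 fell, and Mmp2 fell by a smaller amount that depended on the analysis. Mmp14, Mmp11 and Timp2 did not pass the test, and Mmp3, Mmp10 and Mmp13 lay near or at 0 in both groups and were not tested. Thus 4 of the 10 genes were called at a limma adjusted p under 0.05, 2 higher and 2 lower. Over all 14209 tested genes 18.8% were called, 7.12% higher and 11.6% lower. Of all calls 37.9% were higher in MU, and 48.3% to 48.8% under the 3 alternative scalings. A gene was tested if it reached 1 TPM in at least 3 libraries, and differences are on the log2(TPM + 1) scale, which understates changes of low genes.

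**Figure D1:**
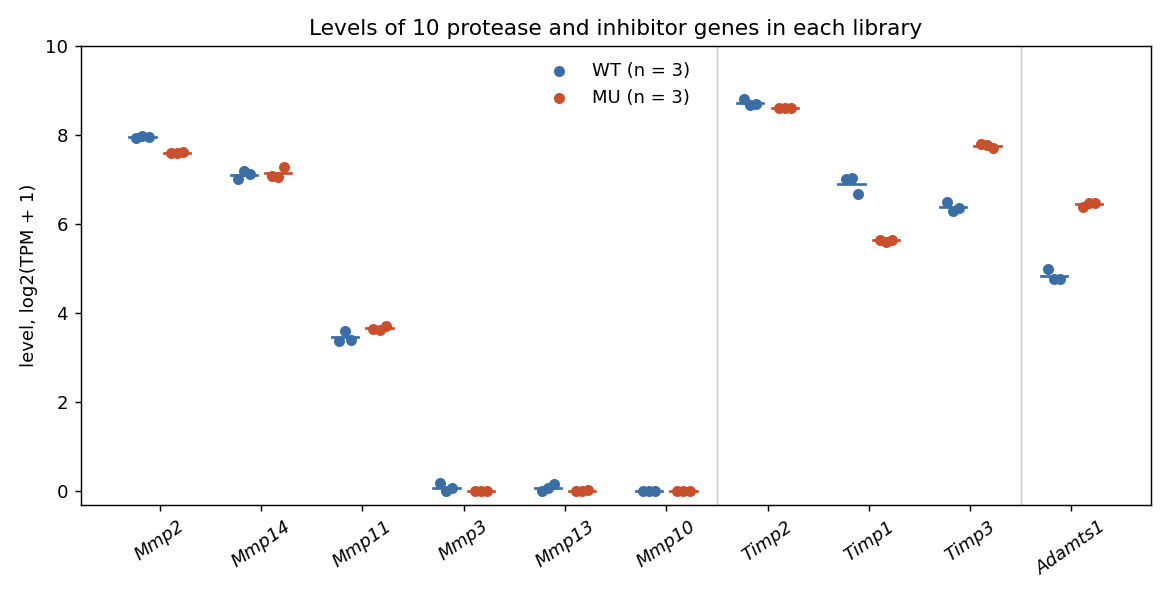
Level of each of the 10 genes in every library, as log2(TPM + 1) on the vertical axis. Points are libraries (3 WT, 3 MU) and horizontal lines are group means. Timp1, Timp3 and Adamts1 show a wide gap between groups, Mmp2 a narrow one, and Mmp3, Mmp13 and Mmp10 lie at or near 0.

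Among the inhibitors, Timp3 and Timp1 moved in opposite directions. Timp3 (ENSMUSG00000020044.13, GRCm38, chromosome 10, 86300372 to 86349506, plus strand) encodes the matrix-bound inhibitor. Its WT levels were 88.8, 77.7 and 80.6 TPM, and its MU levels 221, 218 and 209 TPM. Every MU library was far above every WT library. The level rose 2.62-fold, from 82.4 ± 5.75 to 216 ± 6.15 TPM (mean ± SD, n = 3), a log2 difference of 1.38 (SE 0.08, limma adjusted p = 0.000338).

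Timp1 (ENSMUSG00000001131.11, chromosome X, 20870166 to 20874735, plus strand) encodes a secreted, inducible inhibitor with growth-promoting activity. Its levels were 127, 129 and 101 TPM in WT and 49.2, 47.5 and 49.2 TPM in MU. WT replicate 3 was the lowest of its group but still far above every MU library, and the MU libraries were close to each other. The level fell from 119 ± 15.7 to 48.6 ± 0.948 TPM, 2.45-fold lower, with a log2 difference of −1.27 (SE 0.11, limma adjusted p = 0.0013).

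Timp2 (ENSMUSG00000017466.9, chromosome 11, 118301069 to 118355740, minus strand), which takes part in the activation of Mmp2 as well as its inhibition, was the most abundant of the 10 genes in both groups. It was at 445, 406 and 412 TPM in WT and at 391, 391 and 389.7 TPM in MU. The groups did not overlap, as was the case for 39.2% of all tested genes. Its log2 difference was −0.11 (95% interval −0.30 to 0.08, limma adjusted p = 0.397), and with quantile normalization it was 0.034 (adjusted p = 0.795). Timp4, the remaining member of the inhibitor family, did not reach the expression minimum. It was listed at 0, 0 and 0.0136 TPM in WT and at 0.594, 1.44 and 1.57 TPM in MU. The authors' deposited table lists Timp4 as higher in MU (log2 fold change 2.63, adjusted p = 3.48e-11).

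The make-up of the inhibitor mRNA differed between the groups. The 3 inhibitors added up to 662, 613 and 594 TPM in WT and 661, 657 and 648 TPM in MU, and these ranges overlapped. The difference of the group means was 32.4 TPM, but 70.2 TPM after rescaling without mtDNA-encoded genes and 61.6 TPM with median-of-ratios scaling. Timp3 made up 13.2% ± 0.481 of that sum in WT and 33.0% ± 0.612 in MU. The share of Timp1 was 19.1% ± 2.02 in WT and 7.42% ± 0.175 in MU, and that of Timp2 67.6% ± 1.60 and 59.6% ± 0.507. In WT, Timp1 stood above Timp3 in each library, with ratios of Timp3 to Timp1 of 0.697, 0.601 and 0.796. In MU the order was turned, and the ratios were 4.50, 4.59 and 4.26. These sums and shares are descriptions and carry no test.

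**Figure D2:**
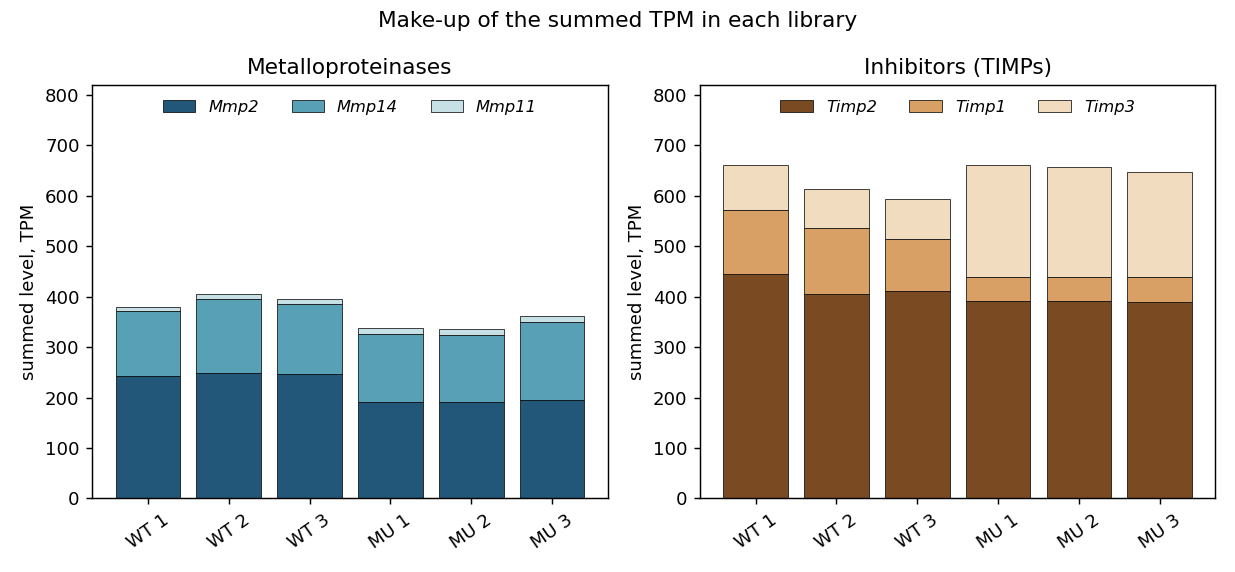
Summed level in TPM (vertical axis) in each of the 6 libraries, for the 3 metalloproteinases above 1 TPM (left) and the 3 inhibitors (right), stacked by gene. The Timp3 segment is wider and the Timp1 segment narrower in all MU libraries, while inhibitor totals stay between 594 and 662 TPM.

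Timp1 and Timp3 each lie within the span of a synapsin gene that runs on the other strand. The gene around Timp1, Syn1, was at 1.51 ± 0.378 TPM in WT and at 1.68 ± 0.387 TPM in MU (limma adjusted p = 0.804). The gene around Timp3, Syn3, was at 0.622, 1.12 and 0.778 TPM in WT and at 3.91, 2.68 and 2.69 TPM in MU, a rise of 1.15 on the log2 scale (adjusted p = 0.013). The kit marked strand. Whether strand was used in counting is not known from the labels, so reads of Syn3 and Timp3 cannot be told apart where the genes overlap. Syn3 stood far below Timp3 in every library.

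Of the proteases, Mmp2, the secreted gelatinase A, was the most abundant, followed by its activator Mmp14. Mmp2 (ENSMUSG00000031740.8, chromosome 8, 92827291 to 92853420, plus strand) was at 243, 249 and 247 TPM in WT and at 192, 192 and 195 TPM in MU. All MU libraries were lower, and the spread within each group was small. Its level fell from 247 ± 3.21 to 193 ± 2.11 TPM, to 0.783 of the WT level, with a log2 difference of −0.35 (SE 0.07, limma adjusted p = 0.018).

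This call for Mmp2 was not stable. It was lost without WT replicate 1 (limma adjusted p = 0.0508) and without MU replicate 1, 2 or 3 (0.0929, 0.0992 and 0.0773), and with quantile normalization (0.0793). With 1 library left out, the log2 difference of Mmp2 itself stayed between −0.36 and −0.34. Calls over all tested genes fell from 2667 to 1430 without WT replicate 1, and to 1158, 1071 and 1203 without MU replicate 1, 2 or 3. The other tested genes of chromosome 8, 746 of them, had a median log2 difference of −0.31, against −0.05 for all tested genes, and the 10 tested genes nearest to Mmp2 had a median of −0.29. After each gene was centred on its chromosome, the difference of Mmp2 was −0.10 (adjusted p = 0.393).

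Mmp14 (ENSMUSG00000000957.11, chromosome 14, 54431612 to 54445364, plus strand), the membrane-type collagenase, was at 128, 146 and 139 TPM in WT and at 135, 133 and 154 TPM in MU. The groups overlapped in part, with a log2 difference of 0.03 (95% interval −0.20 to 0.26, limma adjusted p = 0.851), and the sign changed without WT replicate 1 or MU replicate 3 and after centring on the chromosome. Mmp11 (ENSMUSG00000000901.17, chromosome 10, 75923222 to 75936496, minus strand), stromelysin-3, is cut to its active form inside the cell by furin. It was at 9.40, 11.1 and 9.59 TPM in WT and at 11.5, 11.3 and 12.1 TPM in MU, a difference of 0.20 (95% interval −0.06 to 0.46, adjusted p = 0.245). For both genes these intervals include no difference as well as small differences.

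The 6 MMP genes together summed to 380.5, 406 and 395 TPM in WT and 338, 336 and 362 TPM in MU, so that every MU library was lower. The difference of the group means was −48.7 TPM, and −32.4 TPM with median-of-ratios scaling. Mmp2 made up 62.6% ± 1.24 of this sum in WT and 55.9% ± 1.66 in MU, and Mmp14 34.8% ± 1.14 and 40.7% ± 1.67. The ratio of inhibitor to protease sums was 1.74, 1.51 and 1.502 in WT and 1.96, 1.95 and 1.79 in MU, and these ranges did not overlap. The groups also did not overlap for 39.2% of all tested genes. Within the MMP sum, Mmp2, whose call was not stable, went from 247 to 193 TPM, and Mmp14 from 137 to 141 TPM. Such a ratio of mRNA levels does not measure enzyme activity.

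Mmp3, Mmp10 and Mmp13 were near or at the bottom of the table. Mmp3 (stromelysin-1, chromosome 9, 7445822 to 7455975) was listed at 0.140, 0 and 0.046 TPM in WT and at 0 in all MU libraries. Mmp13 (a collagenase, chromosome 9, 7272514 to 7283331) was at 0, 0.0546 and 0.118 TPM in WT and at 0, 0 and 0.0282 TPM in MU. Mmp10 (stromelysin-2, chromosome 9, 7502352 to 7510240) was listed at 0 in all 6 libraries. Being listed at 0 TPM is no proof of absent RNA.

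These 3 genes lie in a cluster of 10 MMP genes that spans 0.427 Mb of chromosome 9. In it 5 genes were listed at 0 in every library, and leaving Mmp27 aside, the highest single value was 0.158 TPM. The exception was Mmp27, which lies 2.91 kb from the listed-at-0 gene Mmp8 and stood at 1.49 ± 0.256 TPM in WT and at 1.49 ± 0.211 TPM in MU (log2 difference 0.0023, limma adjusted p = 0.995). Near-identical neighbours in this cluster could share reads, and how such reads were counted is not known from the labels.

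The promoters of these 3 genes are shown because they differ in motif content from those of the expressed genes. The contrast was thus picked for its difference and is no test. As the 3 genes share a cluster of MMP genes, their windows may not be independent cases. Windows of 250 bases before the RefSeq start site (build GRCm38.p6) were found for 9 of the 10 genes, all but Mmp2. They were searched on both strands for 6 motifs: the AP-1 site TGANTCA, the cAMP response element TGACGTCA, the GC box GGGCGG, the CCAAT box CCAAT, the TATA box TATAAA and the CArG box, by its name. The last 100 bases before the start follow, 5′ to 3′ on the plus strand, with AP-1 and TATA matches in capitals, for Mmp3 (chr9:7445722-7445821), Mmp10 (chr9:7502242-7502341) and Mmp13 (chr9:7272414-7272513).
Mmp3: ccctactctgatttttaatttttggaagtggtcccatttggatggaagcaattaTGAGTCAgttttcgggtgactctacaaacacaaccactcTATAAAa
Mmp10: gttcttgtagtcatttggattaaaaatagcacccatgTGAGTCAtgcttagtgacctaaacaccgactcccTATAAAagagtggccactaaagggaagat
Mmp13: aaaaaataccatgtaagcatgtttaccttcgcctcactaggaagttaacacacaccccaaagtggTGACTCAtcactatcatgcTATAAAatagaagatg
Each of the 3 windows held an AP-1 site, 46 to 40, 63 to 57 and 35 to 29 bases before the start in the order above, and a TATA box between it and the start. None held a GC box. Of the 6 expressed genes with a window, 0 held the AP-1 site, 6 held a GC box and 1 held a TATA box. Not all 6 windows are equally placed. The RefSeq start lies 3994 bases (Mmp11) and 329 bases (Timp2) downstream of the GENCODE gene start, so these windows fall within the gene span. For Timp3 it lies 40 bases downstream, and the GC box of Timp3 falls within those 40 bases. Over all 32851 windows of the same length, 6.75% held the AP-1 site, 32.7% a GC box and 12.4% a TATA box. GC content differed too, at 37.2% to 40.4% in the windows of Mmp3, Mmp10 and Mmp13 and 54.4% to 68.0% in those of the expressed genes. The median over all windows was 52.4%. The part of GC content in the motif counts was not tested. A match describes letters and does not show that a factor binds.

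Adamts1 (ENSMUSG00000022893.14, chromosome 16, 85793827 to 85803113, minus strand) had the largest difference of the 10 genes. It was at 30.7, 26.2 and 26.3 TPM in WT and at 82.2, 88.6 and 88.5 TPM in MU. Each MU library exceeded each WT library by a wide margin. The level rose 3.12-fold, from 27.7 ± 2.59 to 86.4 ± 3.65 TPM, with a log2 difference of 1.61 (SE 0.09, limma adjusted p = 0.000337). Of all tested genes, 3.17% were called and changed at least as much as Timp1 in either direction. The cut was taken from Timp1, which differed least of Adamts1, Timp3 and Timp1. The share thus describes size and is no test.

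The promoter windows of these 3 called genes are shown for comparison with those above. They run 5′ to 3′ along the gene, with motif matches in capitals, for Adamts1 (chr16:85803114-85803363, minus strand), Timp1 (chrX:20869916-20870165, plus strand) and Timp3 (chr10:86300162-86300371, plus strand). The Timp3 stretch ends before the start site given by GENCODE, which lies 40 bases before that of RefSeq.
Adamts1: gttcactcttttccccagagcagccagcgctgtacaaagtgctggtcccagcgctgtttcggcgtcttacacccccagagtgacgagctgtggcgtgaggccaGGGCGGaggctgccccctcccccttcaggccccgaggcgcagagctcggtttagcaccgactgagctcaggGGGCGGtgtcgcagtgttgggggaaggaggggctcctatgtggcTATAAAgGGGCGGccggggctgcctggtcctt
Timp1: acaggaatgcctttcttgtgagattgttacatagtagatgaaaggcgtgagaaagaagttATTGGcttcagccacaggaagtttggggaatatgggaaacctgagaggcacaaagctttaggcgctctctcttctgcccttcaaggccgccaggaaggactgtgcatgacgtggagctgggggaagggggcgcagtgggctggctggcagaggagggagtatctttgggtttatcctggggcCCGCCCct
Timp3: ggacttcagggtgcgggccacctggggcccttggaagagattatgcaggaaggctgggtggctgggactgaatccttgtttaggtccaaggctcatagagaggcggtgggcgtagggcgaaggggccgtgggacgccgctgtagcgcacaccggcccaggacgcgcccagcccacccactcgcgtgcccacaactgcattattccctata
Adamts1 held 3 GC boxes and a TATA box 32 to 27 bases before the start. Timp1 held a CCAAT box, on the other strand, 190 to 186 bases before the start, and a GC box, also on the other strand, 8 to 3 bases before it. The single match of Timp3 was a GC box 15 to 10 bases before the RefSeq start, beyond the stretch shown. CCAAT boxes were found in 33.9% of all windows, and the cAMP response element and the CArG box in 0 of the 9 windows (1.55% and 1.47% of all windows).

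The genomic neighbour of Adamts1, Adamts5, rose as well. It encodes another proteoglycan-cutting protease (aggrecanase-2) and lies 53.1 kb away on the same strand, at 85856173 to 85901828. Its level was 4.87, 4.22 and 5.04 TPM in WT and 29.8, 28.9 and 27.2 TPM in MU. That was a rise of 2.38 on the log2 scale (SE 0.11, limma adjusted p = 0.000107), and no WT library came near any MU library. The 10 tested genes nearest to Adamts1, which include Adamts5, had a median difference of 0.07. Of these 10, 2 were called higher, counting Adamts5 itself, against 7.12% of all tested genes. The median over the other 439 tested genes of chromosome 16 was −0.07.

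The differences of Timp1, Timp3 and Adamts1 were far from the medians of their chromosomes. The median log2 difference was −0.23 over the other tested genes of chromosome X and 0.11 over those of chromosome 10. After centring, Timp1 differed by −1.09, Timp3 by 1.22 and Adamts1 by 1.62. The 10 tested genes nearest to Timp3 had a median of 0.37, with 3 of them called higher and 0 lower. Among the 3 is Syn3, whose reads cannot be told apart from those of Timp3 where the genes overlap. The 10 nearest to Timp1 had a median of −0.11, with 0 called. Over all tested genes 18.8% were called, 7.12% of them all higher and 11.6% lower.

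**Figure D3:**
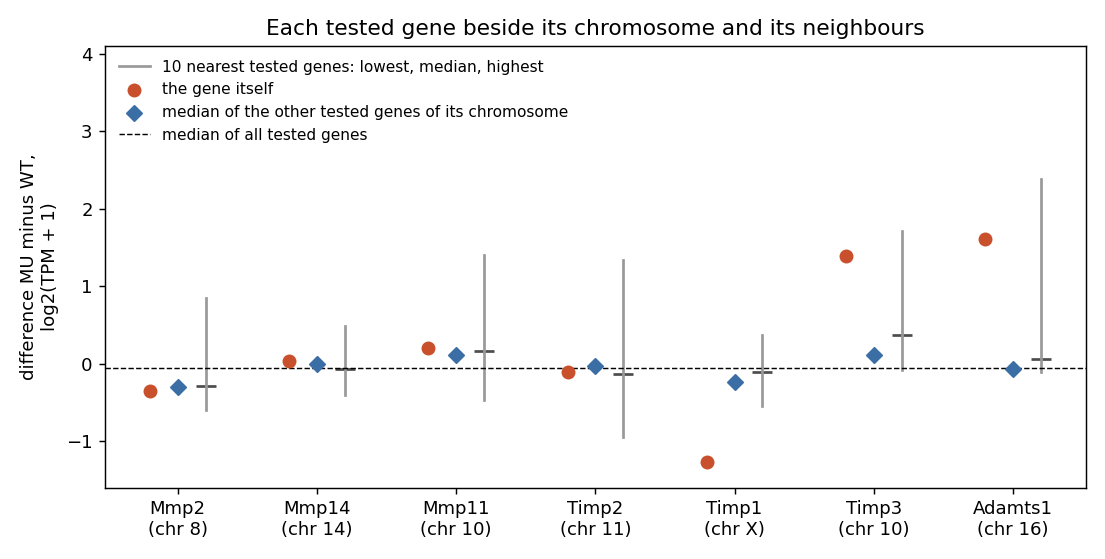
Log2 difference (MU minus WT, vertical axis) of each tested gene (red), of the median gene of its chromosome (blue) and of its 10 nearest tested neighbours (grey, lowest to highest with the median as a tick). Mmp2, at −0.35, lies beside its chromosome median of −0.31, while Timp1, Timp3 and Adamts1 lie far from theirs.

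Other MMP genes were mostly at low levels. Of the 18 other MMP and TIMP genes, 4 were tested, 2 rose and 0 fell, against 7.12% called higher and 11.6% lower over all tested genes. The tested ones had a median log2 difference of 0.34, against −0.05 over all tested genes. Mmp28 (epilysin) rose from 0.704 ± 0.222 to 4.59 ± 0.150 TPM, by 1.72 (SE 0.17, limma adjusted p = 0.00176). Mmp19 rose from 8.89 ± 1.10 to 14.6 ± 0.369 TPM, by 0.67 (SE 0.12, adjusted p = 0.0119), a call lost without any 1 MU library (0.0534 to 0.0551). Mmp16, a membrane-type enzyme, was at 1.57 ± 0.0928 TPM in WT and at 0.683 ± 0.455 TPM in MU (unadjusted p = 0.0359, limma adjusted p = 0.121), the 1 gene of this list that was lower at an unadjusted p under 0.05. Mmp9, gelatinase B, reached 0.744 TPM in its highest library, too low for a test. With no filter on low values 14 genes of this list were tested and 3 rose. The authors' deposited table lists Mmp16 as lower in MU (log2 fold change −0.88, adjusted p = 0.0367).

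Of the 24 other ADAMTS and ADAMTS-like genes 10 were tested, 5 rose and 1 fell, with a median log2 difference of 0.61. Beside this list and the ADAM genes below, 7.12% of all tested genes were called higher and 11.6% lower. Besides Adamts5, Adamts2, which removes the N-terminal propeptide of procollagen, rose from 9.21 ± 0.152 to 23.1 ± 1.63 TPM, by 1.23 (limma adjusted p = 0.000813). Adamts7 fell from 10.4 ± 0.779 to 4.63 ± 0.345 TPM, with a log2 difference of −1.02 (adjusted p = 0.00303). The other rises, of Adamts6, Adamts10 and Adamtsl4, are named after their values were seen. The risen genes of this list numbered 2 without any 1 MU library, 2 with no filter on low values and 3 without WT replicate 1. Of 10 ADAM genes, 9 were tested, 1 rose and 3 fell. Adam23 rose from 5.15 ± 0.256 to 16.8 ± 0.816 TPM, and Adam9, a membrane-bound sheddase on chromosome 8, fell from 87.9 ± 5.94 to 61.6 ± 2.25 TPM. Adam22 fell from 4.18 ± 0.318 to 1.37 ± 1.01 TPM, a call that was kept without MU replicate 1 and lost without each other library (limma adjusted p from 0.0578 to 0.114). The third to fall, Adam12, is named after its values were seen. The call of Adam9 was lost without MU replicate 2 or 3 (adjusted p = 0.0527 and 0.0531) and after centring on the chromosome (0.0929).

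**Figure D4:**
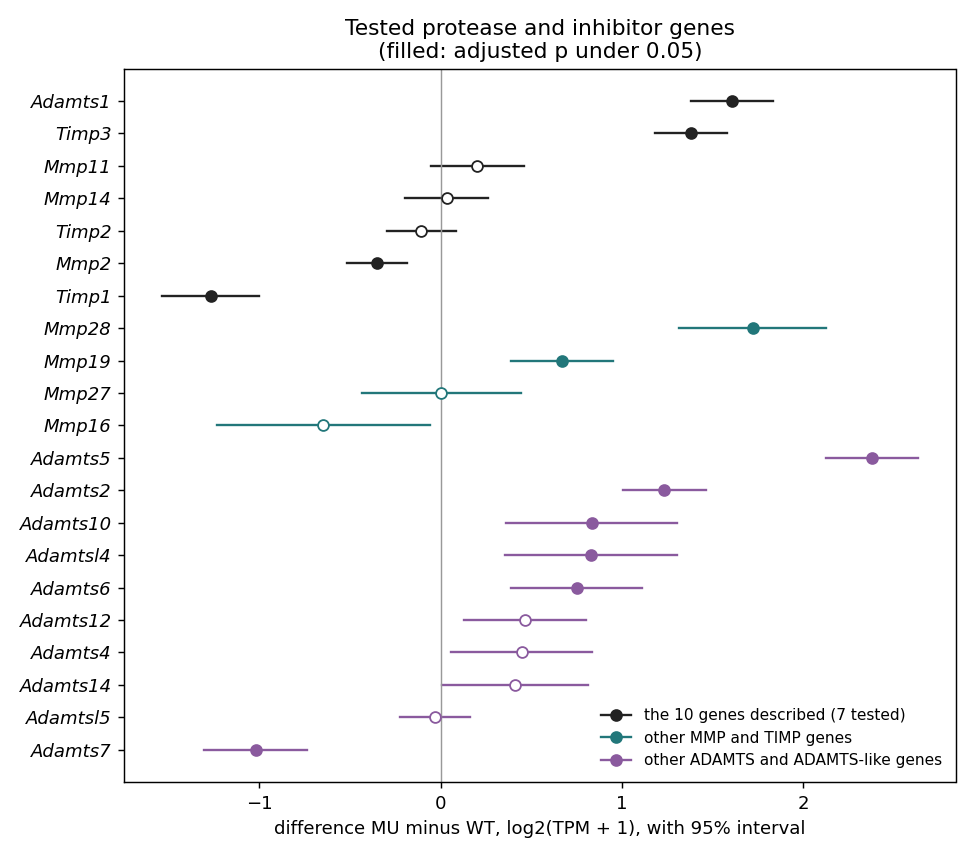
Log2 difference (MU minus WT, horizontal axis) with its 95% interval for the 7 tested genes of the set (black) and the tested genes of the wider MMP, TIMP and ADAMTS families. Filled points have an adjusted p under 0.05. Adamts5, Mmp28, Adamts1 and Timp3 lie farthest to the right and Timp1 farthest to the left.

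Genes that activate, anchor or clear these enzymes did not move in a single direction. Of 21 such genes 13 were tested, 3 rose and 4 fell, against 7.12% called higher and 11.6% lower over all tested genes. Plau, the urokinase plasminogen activator that starts a proteolytic cascade ahead of several MMPs, rose from 13.1 ± 0.734 to 32.6 ± 0.700 TPM (limma adjusted p = 0.000536). Cav1, a coat protein of caveolae, rose from 426 ± 14.8 to 811 ± 16.9 TPM (adjusted p = 0.00124). Serpine2, an inhibitor of such serine proteases, fell from 9.58 ± 0.655 to 0.139 ± 0.0847 TPM (adjusted p = 0.000164). Cd44, a hyaluronan receptor that can hold MMPs at the cell surface, fell from 120 ± 10.2 to 79.98 ± 5.40 TPM (adjusted p = 0.011), a call lost without MU replicate 3 (0.0512). Plaur and Plat, which also fell, are named after their values were seen. The genes of this list that fell numbered 2 without WT replicate 1 or MU replicate 1 or 2, and 1 without MU replicate 3. Reck, a membrane-anchored MMP inhibitor, was at 6.64 ± 0.995 TPM in WT and at 6.94 ± 1.48 TPM in MU (adjusted p = 0.883) and was chosen after its values were seen.

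Among transcription factors known to act on MMP and Timp1 promoters, the genes that passed the test were lower in MU. Of 27 such genes of the AP-1, ETS, NF-kB, C/EBP and Runx families and others 26 were tested, 0 rose and 9 fell, with a median log2 difference of −0.31. Over all tested genes 7.12% were called higher and 11.6% lower. At an unadjusted p under 0.05, 0 were higher and 11 lower. Jun, the core AP-1 subunit, fell from 113 ± 8.42 to 57.1 ± 2.33 TPM (limma adjusted p = 0.00138), and Maff, a small Maf protein, from 22.2 ± 0.618 to 10.2 ± 0.0471 TPM (adjusted p = 0.00101). The other 7 that fell, given after their values were seen, were Fosl1, Etv1, Etv4, Etv5, Nfkb1, Rela and Runx1. Rela passed narrowly (limma adjusted p = 0.0497). Fosl1, an AP-1 partner of Jun, was at 72.3 ± 24.6 TPM in WT and at 21.1 ± 1.69 TPM in MU. Fos was at 1.42 ± 0.0853 TPM in WT and at 2.02 ± 0.528 TPM in MU (adjusted p = 0.326). Other AP-1 genes did not pass the test either, and are given after their values were seen. Fosl2 was at 55.6 ± 2.82 TPM in WT and at 57.9 ± 1.09 TPM in MU (limma adjusted p = 0.655). Jund was at 64.4 ± 13.6 and 65.5 ± 4.45 TPM (0.882), and Junb at 21.5 ± 8.57 and 16.0 ± 1.19 TPM (0.393).

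Of 30 matrix proteins that these enzymes are known to cut or bind 27 were tested, 11 rose and 6 fell, with a median log2 difference of 0.22. The shares over all tested genes were 7.12% higher and 11.6% lower. The rises included Thbs1, thrombospondin-1, from 55.0 ± 2.72 to 206 ± 3.33 TPM, and Col5a2, a fibrillar collagen chain, from 47.9 ± 2.63 to 128 ± 2.55 TPM. Thbs2 fell from 64.8 ± 0.432 to 33.3 ± 1.08 TPM, and Dcn, decorin, also fell. Vcan, the versican substrate of Adamts1, was at 108 ± 16.2 TPM in WT and at 122 ± 4.08 TPM in MU (limma adjusted p = 0.354) and was chosen after its values were seen. Without MU replicate 2 or 3 the rises numbered 7.

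The genes whose profile over the 6 libraries lay closest to that of Timp1 were Pgbd5 and Tnc, by the root mean squared distance of log2(TPM + 1) after each gene's own mean was removed (0.0628 and 0.0638). Tnc, the matrix glycoprotein tenascin-C, fell from 84.3 ± 9.04 to 35.5 ± 0.902 TPM. Closest to Mmp14 were Arfgap1 (0.0194) and Gm48942 (0.0246), neither of which passed the test.

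Markers of cartilage and bone cells, which use Mmp13, were low apart from Sox9 and Runx2. The 8 markers summed to 91.2 to 109 TPM in WT and 50.3 to 54.5 TPM in MU, and Sox9 fell from 67.9 ± 7.48 to 22.5 ± 1.08 TPM, while Acan, Col2a1, Ibsp and Sp7 had group means of at most 0.119 TPM. Runx2 was at 30.8 ± 3.26 TPM in WT and at 28.5 ± 3.27 TPM in MU. The 6 muscle markers summed to 0.942 to 1.01 TPM in WT and 3.87 to 4.26 TPM in MU, with Acta1 called higher. The 5 endothelial markers summed to 1.77 to 3.22 and 0.692 to 0.867 TPM, the 7 epithelial to 0.790 to 1.54 and 1.60 to 2.31 TPM, and the 6 adipocyte markers to 19.0 to 22.6 and 12.2 to 12.96 TPM. Of these, Cdh5 and Lpl were called lower. Among the 12 fibroblast markers, 11 were tested, 4 rose (Col1a2, Ddr2, Col1a1 and Thy1) and 0 fell, with 1 lower at an unadjusted p under 0.05 (limma). As before, 7.12% of all tested genes were called higher and 11.6% lower. The part of these markers in the results was not tested.

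The authors' deposited table gives its own comparison of MU with WT. In the authors' deposited table the log2 fold change was 1.66 for Adamts1 (adjusted p = 9.08e-47), 1.42 for Timp3 (2.15e-43), −1.19 for Timp1 (9.13e-14) and −0.29 for Mmp2 (0.0206). The authors' deposited table lists Mmp11 at 0.25 (adjusted p = 0.331), Mmp14 at 0.08 (0.745) and Timp2 at −0.05 (0.781), all without a call, and no adjusted p for Mmp3, Mmp10 and Mmp13.

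**Figure D5:**
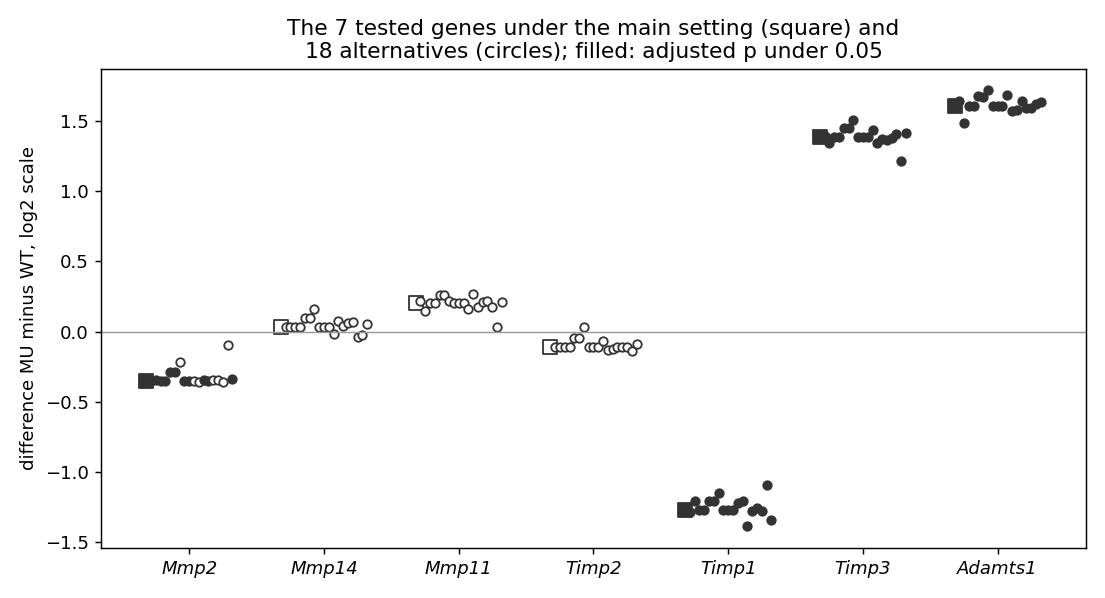
Log2 difference (MU minus WT, vertical axis) of the 7 tested genes under the main setting (square, at the left of each group) and 18 alternative settings (circles). Filled symbols have an adjusted p under 0.05. Timp1, Timp3 and Adamts1 are filled in all, Mmp2 in the main setting and 11 alternatives, and Mmp14, Mmp11 and Timp2 in 0.

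Across the 18 alternative settings, Timp1, Timp3 and Adamts1 passed in every one. Their differences ranged from −1.38 to −1.09, from 1.22 to 1.51 and from 1.48 to 1.72, and their largest adjusted p-values were 0.0137, 0.00918 and 0.00926 (limma). Mmp2 passed in 11 of the 18, with differences from −0.36 to −0.10.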

How the data were processed

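RNA of 3 WT and 3 MU libraries had been extracted and made into strand-marked poly(A) libraries, per the labels' protocols. The submitters' processing notes name DESeq2 1.20.0, featureCounts 1.5.0-p3, HISAT2 2.05.0 and FastQC 0.11.4, with mm10 as build. Not given in the sources used here: tool roles, strand setting, annotation and TPM formula. The authors deposited log2 values, log2(TPM + 1) per the file headers and the values. They also deposited a comparison table with group mean TPM, log2 fold changes, p-values and adjusted p-values.

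TPM was recovered from these values, and log2(TPM + 1) was compared by limma 3.58.1 under R 4.3.3 (two-sided moderated test with an intensity trend and no covariate). Tested genes reached 1 TPM in 3 or more libraries, and p-values were adjusted by Benjamini-Hochberg over all 14209. Calls are at an adjusted p under 0.05. The test was tried on simulated data. TPM keeps no depth, so the number of libraries limits the precision. Genes were matched by identifier to GENCODE M21 (GRCm38, the assembly of mm10) for 55141 of 55401. Promoters are from RefSeq, GRCm38.p6.

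The 10 genes and the lists of related genes were chosen with earlier results of these data known. Named are the 10 genes, every other tested MMP or TIMP gene, in each list the 2 called higher and 2 called lower with the smallest adjusted p, and for Mmp3, Mmp14 and Timp1 the 2 genes of nearest profile (Mmp3 was not tested). A gene of the lists is not reported here. Alternatives were other pseudocounts, filters, scalings, limma settings, a replicate block, each library left out, centring on the chromosome (median of its other tested genes, relative to all tested genes), and a loess correction for GC content and length of the longest transcript.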

Additional observations from a re-analysis of the deposited data

How the results depend on the processing

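Timp1, Timp3 and Adamts1 kept their direction and call under all 18 alternatives. The number of the 10 genes called lower was 1 with quantile normalization, with the replicate block and after centring on the chromosome, and 1 to 2 when a library was left out, as Mmp2 dropped out. The difference of Mmp14 became −0.022 after centring on the chromosome and ranged from −0.035 to 0.075 with 1 library left out, below 0 without WT replicate 1 or MU replicate 3. That of Timp2 became 0.034 with quantile normalization. That of Mmp27, near 0, became −0.016 with quantile normalization, −0.021 after centring and −0.043 with the GC and length correction, and ranged from −0.070 to 0.078 with 1 library left out. The summed MMP difference (MU minus WT) of −48.7 TPM became −32.4 TPM with median-of-ratios scaling, and the summed TIMP difference of 32.4 TPM became 70.2 TPM after rescaling without mtDNA-encoded genes. The cause of these changes was not tested.

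Deviations of same-numbered WT and MU libraries correlated at 0.0495, 0.0154 and −0.0744 across genes, and those of differently numbered ones at −0.137 to 0.120. This gave no sign of pairing by replicate number, but with 3 libraries per group it cannot show that there was none. With the replicate block 1093 of all tested genes were called (456 higher, 637 lower), and 33 genes of the lists (16 higher, 17 lower, against 52 with 26 and 26). Under the block Mmp2 had a limma adjusted p of 0.103, and the calls of Mmp19, Adam9, Adam22 and Cd44 were also lost. Leaving out 1 library gave 1071 to 3391 calls among all tested genes (427 to 1153 higher, 644 to 2238 lower) and 34 to 52 in the lists (16 to 27 higher, 18 to 25 lower). The lower counts came without WT replicate 1 (1430) and MU replicate 1 (1158), 2 (1071) or 3 (1203). Depth is unknown, so for genes near 0 TPM no lower limit of detection can be given.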
